A study of Mus musculus with 24 samples.

Results

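Interferon-stimulated genes (ISGs) were followed in hearts of mice given doxorubicin, an anthracycline given against cancer that can damage heart muscle. The members are a list of 52 ISGs, matched by gene symbol to the 2 deposited count tables, 1 for each time of collection. In all, 44 of the 52 were in the 16 h table of 10393 genes and 26 in the 72 h table of 7723 genes. The same 26 were in both, 18 were in the 16 h table alone, and 8 were in neither (Isg15, Oas1a, Oasl1, Mx1, Mx2, Dhx58, Zbp1 and Epsti1). The low-count filter of the test removed none of the 44 or of the 26.

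All groups are hearts of wild-type mice, with 3 libraries a group. At 16 h, the DOX group had received 25 mg/kg of doxorubicin, the H group 10 mg/kg of hesperitin daily, the DOXH group the combination and the V group vehicle only. At 72 h the groups analysed here are V and DOX, and DOX had again received 25 mg/kg of doxorubicin. Hesperitin, usually spelled hesperetin, is a flavanone of citrus fruit. Strain, age, sex, route and the number of animals behind a sample are stated in none of the labels. The p-values therefore rest on sample-to-sample spread, part of which may be technical.

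An ISG is a gene whose transcription rises when a cell receives an interferon. Type I interferons bind a receptor whose kinases, JAK1 and TYK2, phosphorylate STAT proteins, among them STAT2. Together with IRF9 these form ISGF3, which binds the interferon-stimulated response element in promoters. Interferon-gamma acts through its own receptor on another element, the gamma-activated site. ISG products sense foreign or misplaced nucleic acid, degrade or sequester RNA, block virus entry and exit, and feed back on the pathway itself. Heart muscle cells, endothelium, fibroblasts and macrophages can all carry out this response.

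Promoters are shown first, because the response element is the sequence feature that defines the pathway. RefSeq promoters of GRCm38.p6, from 250 bases before to 50 after each start site, were matched by symbol for 40 of the 52 listed genes and 36 of the 44 measured. Both strands were searched for GAAA, any 2 bases and GAAA again, the core of the interferon-stimulated response element, and 13 of the 36 held it (15 of the 40, 37.5%). Of all 32851 promoters in the reference, 3.44% held this core, and of its 27025 genes 3.99% had at least 1 promoter with it. The 13 are Bst2, Ddx58, Ddx60, Eif2ak2, Ifih1, Ifit1, Ifit3, Ifit3b, Ifitm3, Rsad2, Stat2, Trim21 and Trim30a. A longer core, the same letters followed by CT, was in 8 of the 36, against 0.303% of all genes. Each match of it contains a match of the shorter core. TTCNNNGAA, the core of the gamma-activated site, was in 7 of the 36, against 9.55% of all genes. A match is a run of letters and was not tested as a binding site.

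Of the members with the core, the 4 that had the smallest p in DOX against V at 16 h are given as examples, with Pml, which had the smallest p of the matched members without it. Each sequence runs 5′ to 3′ on the strand of the gene, from 250 bases before to 30 after the start site, and capitals mark the core on either strand. The match begins 2 bases after the start site in Ddx58 (chr4:40239796-40240075, minus strand), 36 before it in Trim30a (chr7:104465164-104465443, minus strand) and 222 before it in Stat2 (chr10:128270248-128270527, plus strand). The Stat2 window rests on the RefSeq start alone: GENCODE begins the gene beyond it, at chr10:128270559, and the stretch after the RefSeq start is in none of the GENCODE transcripts of Stat2. Trim30a has another promoter in the reference (chr7:104446076-104446375), not shown, whose match begins 2 bases after its start site. Ifitm3 (chr7:141010715-141010994, minus strand) has 2 matches, which begin 2 and 19 bases after the start site. The Pml window (chr9:58249757-58250036, minus strand) has none.
Ddx58: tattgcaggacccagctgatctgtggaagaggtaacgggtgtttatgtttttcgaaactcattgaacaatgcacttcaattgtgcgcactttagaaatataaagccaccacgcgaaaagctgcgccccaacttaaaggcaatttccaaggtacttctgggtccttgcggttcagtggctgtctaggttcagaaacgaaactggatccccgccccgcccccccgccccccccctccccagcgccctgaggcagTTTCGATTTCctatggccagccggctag
Trim30a: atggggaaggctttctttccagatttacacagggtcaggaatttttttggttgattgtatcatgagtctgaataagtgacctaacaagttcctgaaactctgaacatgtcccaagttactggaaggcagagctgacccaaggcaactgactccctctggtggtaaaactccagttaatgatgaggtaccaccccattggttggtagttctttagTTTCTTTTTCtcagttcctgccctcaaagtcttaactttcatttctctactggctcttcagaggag
Stat2: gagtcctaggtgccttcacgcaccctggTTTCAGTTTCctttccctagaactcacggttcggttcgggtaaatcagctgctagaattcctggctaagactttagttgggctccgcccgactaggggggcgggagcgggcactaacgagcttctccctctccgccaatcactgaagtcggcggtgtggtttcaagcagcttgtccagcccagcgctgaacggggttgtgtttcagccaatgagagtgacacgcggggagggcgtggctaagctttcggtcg
Ifitm3: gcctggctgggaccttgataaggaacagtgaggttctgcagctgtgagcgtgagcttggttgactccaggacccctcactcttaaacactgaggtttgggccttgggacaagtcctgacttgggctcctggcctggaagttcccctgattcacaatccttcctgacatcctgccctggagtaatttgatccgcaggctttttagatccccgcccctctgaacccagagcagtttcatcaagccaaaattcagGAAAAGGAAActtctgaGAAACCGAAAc
Pml: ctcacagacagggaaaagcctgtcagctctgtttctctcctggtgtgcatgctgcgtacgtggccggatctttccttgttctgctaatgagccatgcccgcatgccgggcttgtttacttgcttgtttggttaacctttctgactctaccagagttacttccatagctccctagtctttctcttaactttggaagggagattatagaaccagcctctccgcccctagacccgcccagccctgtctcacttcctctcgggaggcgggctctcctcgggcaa
Of the 30 matched members that rose at 16 h, 12 held the core, and of the 6 that did not pass the test 1 did (Trim21). Pml rose with no match in its window.

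Before the comparisons, 3 facts of the libraries bear on them. The DOXH libraries did not group: over the 44 members, the median difference from the V mean was 0.69 and 0.64 on the log2 scale in DOXH libraries 1 and 2 and -0.10 in library 3. Library 3 was also near V over all genes that doxorubicin raised, as given with the hesperitin results. The 16 h table holds only genes with at least 40 counts in at least 6 of its 12 libraries, so a gene low in V could enter through the groups where it was high. Of the 44 members, 41 reached that count in 6 of the 9 libraries outside DOX, and 34 of these 41 rose with doxorubicin. The other 3 did not reach it there, and 3 of 3 rose. These 9 libraries include the 3 of DOXH, which also received doxorubicin, so entry through a treated group is not excluded for the 41. The count of 40 is not scaled to library totals, which were higher in H. Library totals were 9255651 to 11074450 counts in V, DOX and DOXH at 16 h, 17664060 to 19869050 in H, and 16607805 to 20587578 at 72 h.

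Doxorubicin raised most of the measured ISGs by 16 h, with at least 3 rises in each functional class. Of 44 measured members, 37 rose, 0 fell and 7 did not pass the test, against 15.6% of all genes rising and 16.6% falling in the same comparison (edgeR quasi-likelihood test, Benjamini-Hochberg adjusted p under 0.05 over 10393 genes). All 44 differences were positive, from 0.13 to 2.45 on the log2 scale, with a median of 1.16, a 2.23-fold difference. The median over all genes was 0.02. By library, the median member stood 1.07, 1.02 and 1.27 log2 units above the V mean in the 3 DOX libraries, and between -0.13 and 0.09 in the 3 V libraries. The groups did not overlap on this measure. Gene by gene, every DOX library lay above every V library in 38 of the 44 members and in 28.4% of all genes tested. Most genes described by library here are those with the smallest p of their role, so their separation follows in part from that choice.

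**Figure D1:**
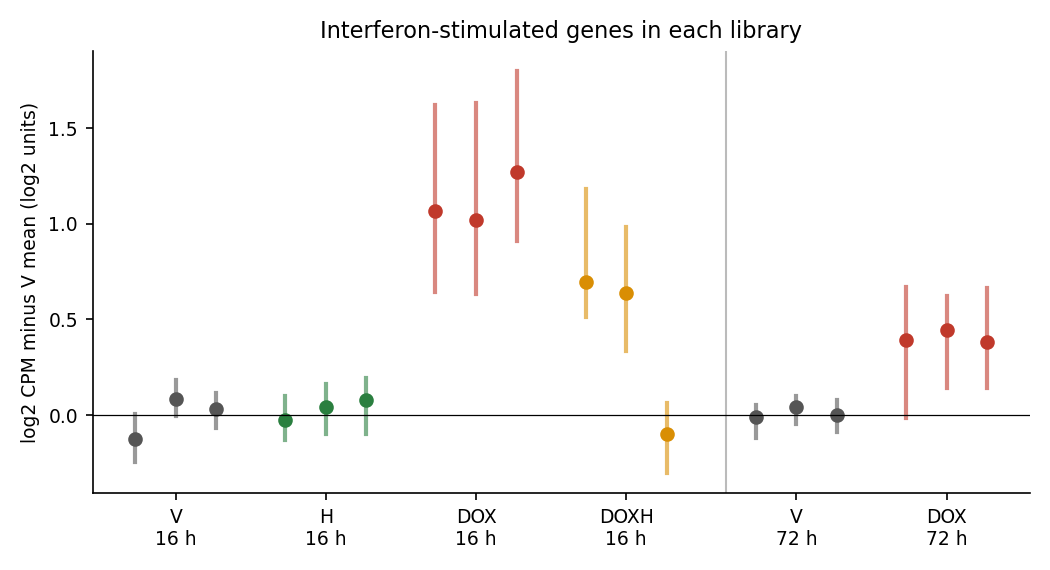
Median over the measured ISGs of log2 CPM minus the V mean of the same time, for each library (44 genes at 16 h, 26 at 72 h). Points are medians and bars run from the lower to the upper quartile over genes. The 3 DOX libraries at 16 h sit at 1.02 to 1.27, DOXH libraries 1 and 2 at 0.69 and 0.64, DOXH library 3 at -0.10, and the 3 DOX libraries at 72 h at 0.38 to 0.45.

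In a bulk heart sample, more RNA per cell and more cells that express a gene cannot be told apart, and markers of other cells moved in the same comparison. At 16 h the summed level of 7 neutrophil markers was 24.4 to 74.8 CPM (counts scaled to library size with TMM factors) in V and 143 to 261 CPM in DOX, with 1 of the 7 past the test. The sum of 9 macrophage and monocyte markers was 185 to 230 CPM in V and 225 to 276 CPM in DOX. Of these 9 differences 8 were positive and 1 negative (median 0.35), with 1 higher and 1 lower past the test. Of 5 erythroid markers, with sums of 1430 to 2811 CPM in V and 993 to 1637 CPM in DOX, 2 fell, as did 2 of 8 endothelial and 2 of 7 mural markers. The 8 cardiomyocyte markers all fell, from a sum of 48594 to 56003 CPM to 26580 to 28314 CPM. None of 9 T and NK cell markers and none of 5 B cell markers is in either table, and of 5 plasmacytoid dendritic cell markers the 16 h table holds Tcf4 and Bst2, which is itself a member. The part of these markers in the ISG differences was not tested.

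Of the 6 factors that drive ISG transcription and their partners, 3 rose (median difference 0.75). Irf7, the factor that amplifies type I interferon output, read 5.69, 8.07 and 6.18 CPM in V and 30.2, 28.1 and 37.3 CPM in DOX, which is a difference of 2.26 ± 0.40 on the log2 scale (SE, adjusted p = 0.00371). Stat2 went from 13.3, 15.3 and 15.7 CPM to 39.7, 45.6 and 49.6 CPM, a change of 1.61 ± 0.25 (adjusted p = 0.00268). Irf9, the DNA-binding partner of Stat2 in ISGF3, read 10.5, 14.96 and 12.1 CPM in V and 27.6, 26.2 and 29.1 CPM in DOX (1.14 ± 0.22, adjusted p = 0.00476). For these 3 genes every DOX library lay above every V library. Irf1, a factor induced by interferon-gamma, did not pass: its DOX libraries read 10.8, 23.6 and 29.98 CPM around a V group of 14.6, 18.1 and 17.7 CPM (0.36 ± 0.31, adjusted p = 0.398). The first DOX library was thus below the V range and the other 2 above it. Nmi, which binds STAT proteins, read 6.17, 6.89 and 7.96 CPM in V and 9.21, 7.36 and 8.71 CPM in DOX, with overlap (0.27 ± 0.15, adjusted p = 0.171). Its partner Ifi35 read 11.0, 11.3 and 13.5 CPM against 14.3, 14.6 and 15.3 CPM, and did not pass either although the groups were apart (0.31 ± 0.18, adjusted p = 0.197).

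**Figure D2:**
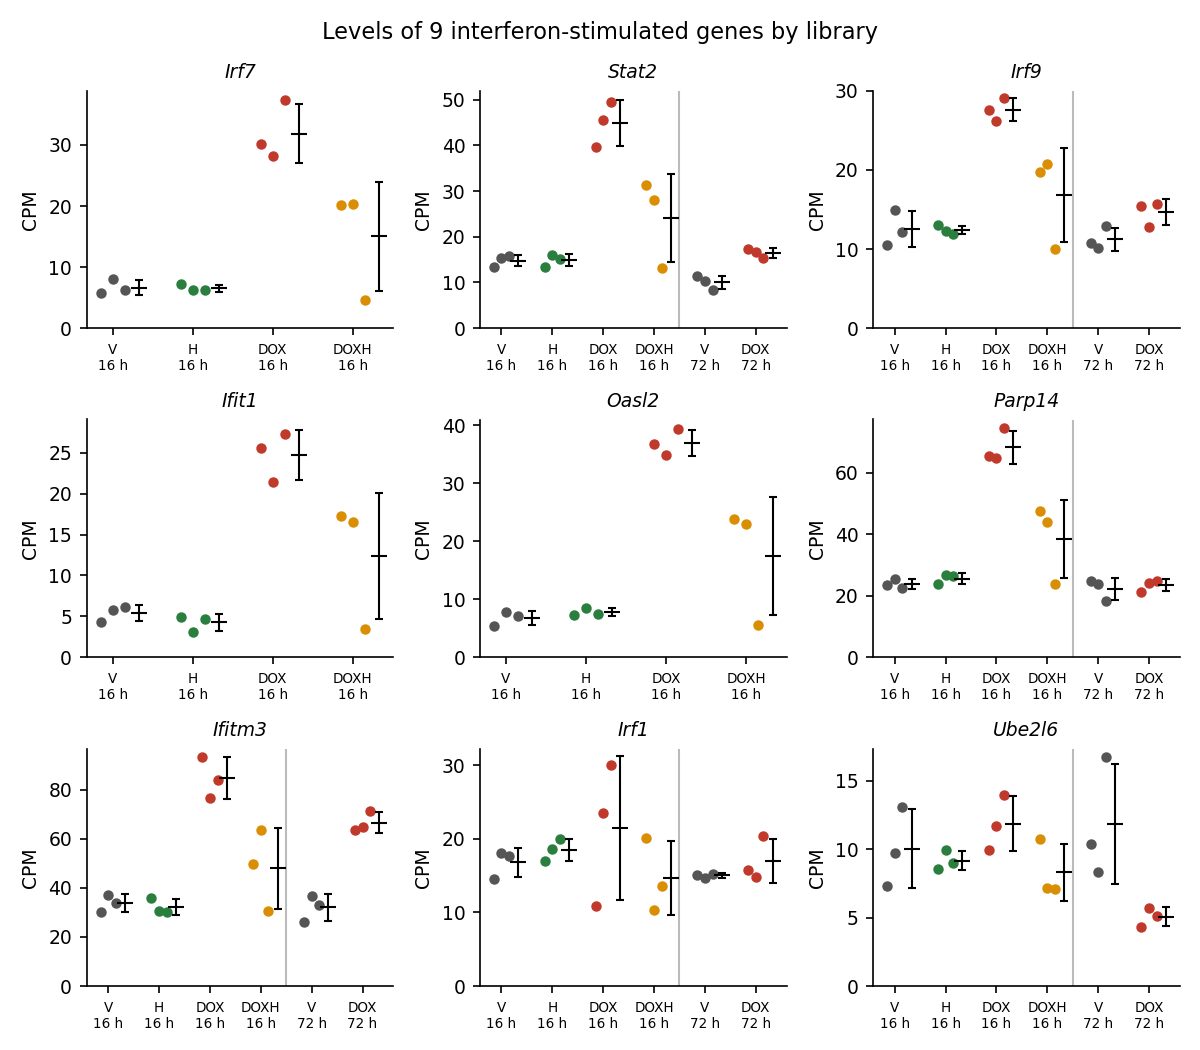
CPM of 9 ISGs in each library (points), with the group mean and SD of 3 libraries (black tick and bar). A grey line divides the 16 h from the 72 h table, each scaled on its own, and Irf7, Ifit1 and Oasl2 are in the 16 h table alone. Irf7 reads 28.1 to 37.3 CPM in DOX and 5.69 to 8.07 CPM in V, and Ube2l6 is below all V libraries in the 3 DOX libraries at 72 h.

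The IFIT proteins, which bind viral RNA and its caps, are encoded side by side on chromosome 19 (GRCm38), from Ifit2 at chr19:34550694-34576419 to Ifit1 at chr19:34640871-34650009. All 4 measured Ifit genes rose, with a median difference of 2.08, the highest of the 9 roles. Ifit1 read 4.24, 5.80 and 6.07 CPM in V and 25.6, 21.4 and 27.4 CPM in DOX (2.21 ± 0.44, adjusted p = 0.00543). Ifit2 read 11.0, 12.4 and 12.8 CPM against 39.2, 47.4 and 56.9 CPM (1.99 ± 0.35, adjusted p = 0.00351). Ifit3 read 4.72, 8.61 and 7.22 CPM against 27.6, 27.5 and 37.1 CPM (2.16 ± 0.36, adjusted p = 0.00321). No DOX library reached down to V for these 3. Ifit3b, a near copy of Ifit3, rose by 1.68 ± 0.48 (adjusted p = 0.0226) from 1.16, 4.81 and 2.83 CPM, and how reads were split between the 2 copies is uncertain. The call for Ifit3b was lost without DOX library 3, V library 1 or V library 3 (adjusted p up to 0.0741).

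Oligoadenylate synthetases and double-stranded RNA effectors also rose in 4 of 4 (median 1.29). Oasl2, an OAS-like protein, had the largest difference among the members: 5.30, 7.80 and 7.12 CPM in V and 36.7, 34.8 and 39.3 CPM in DOX (2.45 ± 0.39, adjusted p = 0.00304). Oas2, whose product makes the oligoadenylates that activate RNase L, rose by 1.70 ± 0.34 (adjusted p = 0.00546). Eif2ak2, which encodes PKR, the kinase that halts translation on double-stranded RNA, read 13.6, 12.2 and 12.6 CPM against 24.5, 19.4 and 25.7 CPM (0.86 ± 0.15, adjusted p = 0.00344). Adar, the enzyme that edits double-stranded RNA, read 12.9, 14.5 and 16.8 CPM against 27.4, 26.6 and 27.9 CPM (0.89 ± 0.16, adjusted p = 0.00344). In each case with libraries given here, the DOX values were above all V values.

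The RNA sensors and helicases rose in 5 of 5 (median 1.08). Ddx58, which encodes RIG-I, whose promoter is shown above, read 13.0, 12.2 and 11.6 CPM in V and 24.6, 20.5 and 26.2 CPM in DOX (0.95 ± 0.14, adjusted p = 0.00244). Ddx60 read 2.31, 4.08 and 3.04 CPM against 9.66, 10.9 and 11.4 CPM (1.75 ± 0.30, adjusted p = 0.00321). Znfx1, a helicase of the outer mitochondrial membrane, had a smaller difference, from 35.1, 35.6 and 34.1 CPM to 50.1, 55.2 and 55.8 CPM (0.62 ± 0.11, adjusted p = 0.00344). Ifih1, which encodes MDA5, rose by 1.24 ± 0.23 (adjusted p = 0.00383) and Helz2 by 1.08 ± 0.20 (adjusted p = 0.00384). The sensors' groups did not overlap for the 3 genes with libraries given.

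Genes of ISG15 conjugation were divided, with 3 of 5 higher (median 0.60). ISG15 is a ubiquitin-like protein, and its own gene is in neither table. Herc6, the ligase that attaches it in mice, read 5.79, 6.16 and 4.82 CPM in V and 14.9, 17.97 and 20.8 CPM in DOX (1.67 ± 0.26, adjusted p = 0.00265). Usp18, which removes ISG15 and dampens the type I receptor, read 1.74, 3.99 and 1.88 CPM against 7.84, 8.50 and 8.54 CPM (1.69 ± 0.40, adjusted p = 0.0107). Trim25, a ligase that acts on RIG-I, went from 33.1, 35.6 and 37.1 CPM to 61.1, 50.5 and 48.5 CPM (0.60 ± 0.13, adjusted p = 0.00638). All 3 were free of overlap between DOX and V. The activating enzyme Uba7 read 12.1, 14.3 and 13.2 CPM in V and 13.5, 17.7 and 24.1 CPM in DOX and did not pass (0.48 ± 0.23, adjusted p = 0.117). The conjugating enzyme Ube2l6 did not pass either, at 7.33, 9.70 and 13.1 CPM against 9.94, 11.7 and 14.0 CPM (0.25 ± 0.22, adjusted p = 0.402). For both enzymes the lowest DOX library lay within the V range.

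All 5 ADP-ribosylation genes rose (median 0.89). Parp14, a mono-ADP-ribosyltransferase, shared the smallest adjusted p of the members with Pml and Rtp4: it read 23.5, 25.6 and 22.5 CPM in V and 65.4, 64.9 and 74.5 CPM in DOX (1.52 ± 0.20, adjusted p = 0.00211). Parp9, which pairs with the ligase Dtx3l, read 13.5, 14.4 and 15.4 CPM against 25.7, 24.6 and 31.5 CPM (0.92 ± 0.14, adjusted p = 0.00256). Parp12 read 18.7, 18.9 and 15.8 CPM against 31.7, 32.6 and 34.6 CPM (0.89 ± 0.18, adjusted p = 0.00503). Every DOX value of these 3 was above every V value. Parp9 and Dtx3l (0.81 ± 0.17, adjusted p = 0.0062) overlap on opposite strands, at chr16:35938470-35972605 and chr16:35926511-35939151. Without a stated strand setting for the counting, reads from the shared stretch cannot be told apart. The same holds for Irf7 with Phrf1, Rtp4 with Masp1, Adar with Chrnb2, Irf1 with Gm17334 and Znfx1 with Zfas1. Same-strand neighbours overlap Irf9 (Rnf31), Parp10 (Plec) and Uba7 (Gm20661). Provisional or non-coding genes also overlap Eif2ak2, Herc6, Ifi35, Oas2, Parp9, Parp14, Pml, Rtp4, Sp100, Trim30a and Usp18.

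Viperin and the restriction factors rose in 5 of 5 (median 1.24). Cmpk2, a mitochondrial nucleotide kinase, read 5.59, 7.34 and 6.91 CPM in V and 14.1, 15.6 and 17.3 CPM in DOX (1.24 ± 0.19, adjusted p = 0.00251). Ifitm3, which keeps viruses from fusing with endosomes, read 29.99, 37.3 and 33.8 CPM against 93.4, 76.4 and 84.0 CPM (1.33 ± 0.21, adjusted p = 0.00279). Samd9l, a growth-restraining antiviral factor, read 20.0, 21.8 and 19.9 CPM against 28.6, 32.0 and 36.5 CPM (0.66 ± 0.14, adjusted p = 0.00668). The groups were separate for all 3. Rsad2, which encodes viperin, rose by 0.73 ± 0.17 (adjusted p = 0.00936), and Bst2, which tethers budding virus to the cell, by 1.25 ± 0.30 (adjusted p = 0.0113).

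Nuclear body and TRIM genes rose in 3 of 4 (median 1.09). Pml, the scaffold of PML nuclear bodies, read 6.56, 7.07 and 6.81 CPM in V and 14.2, 14.1 and 17.99 CPM in DOX (1.18 ± 0.16, adjusted p = 0.00211). Sp100, another body component, read 22.6, 23.4 and 21.5 CPM against 41.8, 43.4 and 49.8 CPM (1.00 ± 0.17, adjusted p = 0.00306). Trim30a read 7.23, 9.61 and 10.5 CPM against 26.7, 28.5 and 28.0 CPM (1.61 ± 0.24, adjusted p = 0.00256). DOX and V were apart for all 3. Trim21, a cytosolic antibody receptor, read 4.72, 5.35 and 3.87 CPM against 4.28, 6.92 and 8.22 CPM and did not pass (0.48 ± 0.25, adjusted p = 0.158), with DOX library 1 inside the V range.

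Of the 6 remaining members, 5 rose (median 1.49). Rtp4, a chaperone of membrane receptors, read 4.53, 4.53 and 3.25 CPM in V and 14.9, 13.5 and 14.95 CPM in DOX (1.81 ± 0.25, adjusted p = 0.00211). Xaf1, a pro-apoptotic factor, read 7.04, 6.98 and 6.28 CPM against 17.96, 13.9 and 19.1 CPM (1.33 ± 0.22, adjusted p = 0.00321). Ifi44 read 2.12, 3.54 and 3.25 CPM against 11.5, 11.4 and 18.1 CPM (2.20 ± 0.42, adjusted p = 0.00465). None of the 3 overlapped between groups. Ifi27l2a rose by 1.66 ± 0.35 (adjusted p = 0.00711) and Lgals3bp by 0.83 ± 0.22 (adjusted p = 0.0157). The call for Lgals3bp was lost without DOX library 3 or V library 1 (adjusted p up to 0.0572). Ifi27, at 10.8, 13.6 and 11.5 CPM in V and 12.4, 12.01 and 15.03 CPM in DOX, had the smallest difference of the 44 (0.13 ± 0.20, adjusted p = 0.621).

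A stricter test, against a fold of 1.5 rather than against no change (edgeR glmTreat), left 12 of the 44 members, all higher, where 0.471% of all genes were higher. With each DOX or V library left out in turn, 35 to 39 of the 44 passed.

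**Figure D3:**
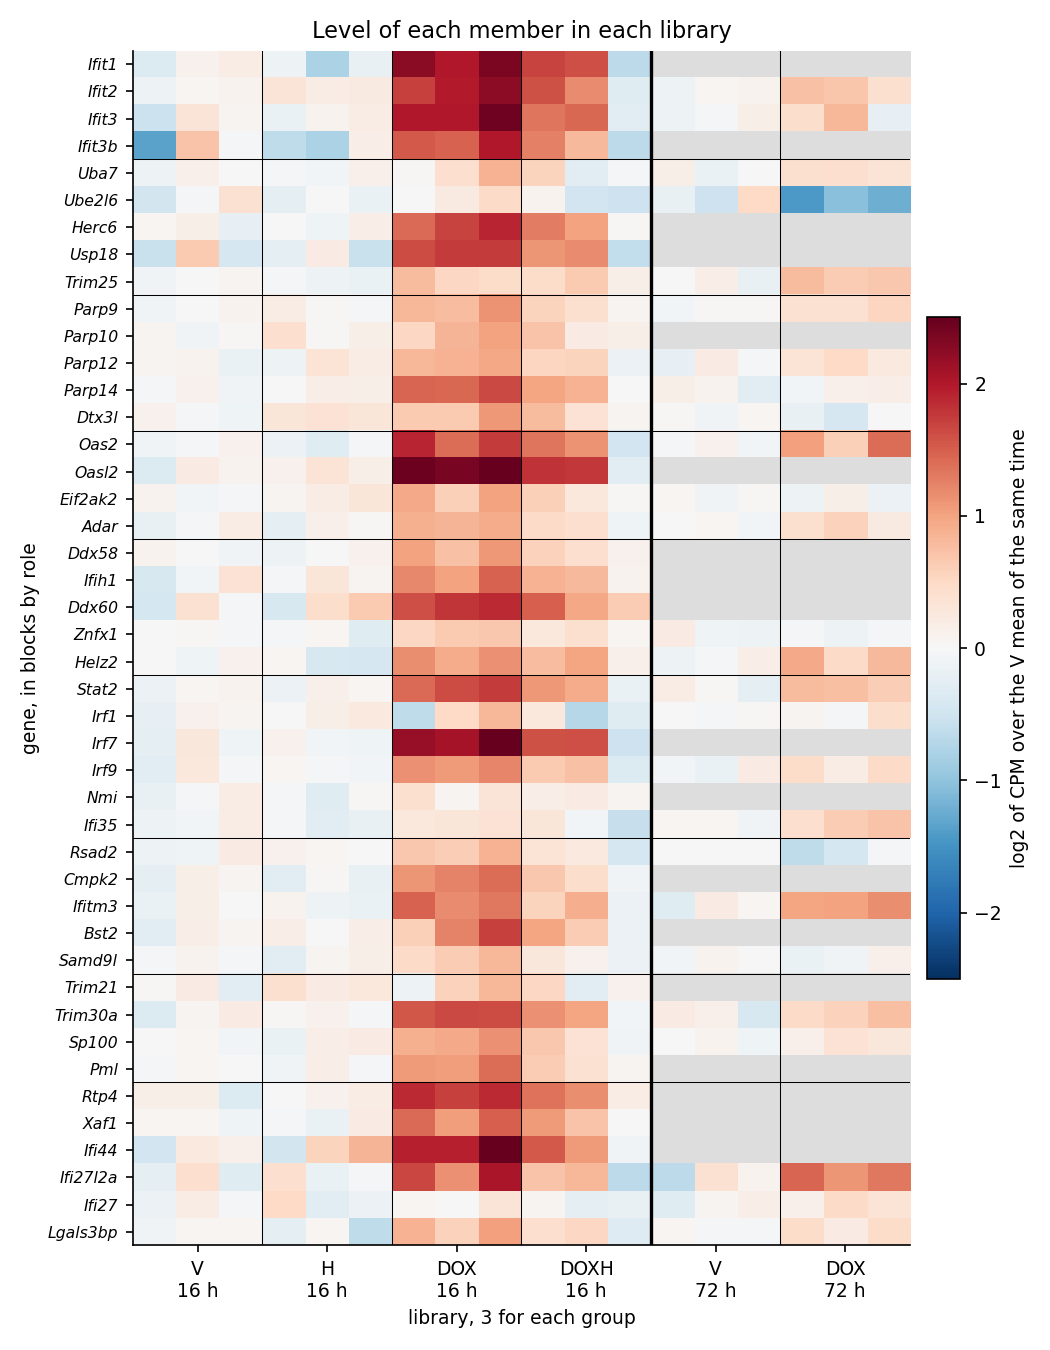
Log2 CPM of each measured ISG over the V mean of the same time, with 1 column for each library and genes in blocks by role. Red is above and blue below the V mean, and grey marks genes not in the 72 h table. The 3 DOX columns at 16 h are red for most of the 44 genes, DOXH library 3 is near or below the V mean in most, and Ube2l6 is blue in the 3 DOX columns at 72 h.

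Upstream of the ISGs, the tables hold little of the interferons themselves, and the counts that follow stand against the 15.6% of all genes that rose and the 16.6% that fell. None of 21 listed interferon genes is in either table, and no statement about their level can be made from this. Of 9 measured genes of interferon receptors and JAK-STAT signalling, 1 rose at 16 h (Jak2, 0.48 ± 0.10) and 2 fell (Ifngr2, -0.74 ± 0.23, and Il10rb, -1.12 ± 0.23). Of 14 genes of nucleic acid sensing outside the members, 6 rose (Tbk1, Myd88, Irf8, Trex1, Samhd1 and Ifi204) and 1 fell (Mavs, -0.65 ± 0.15). The largest rise was that of Ifi204, a DNA sensor of the AIM2-like family, from 6.07, 8.61 and 7.12 CPM to 32.3, 16.0 and 23.1 CPM (1.70 ± 0.30, adjusted p = 0.00354). None of 11 negative regulators of JAK-STAT signalling passed (edgeR; 1 at an unadjusted p under 0.05, Socs3). Usp18 is counted with the members. Of 10 NF-kB targets 3 rose, and of 4 chemokines induced by interferon-gamma the 1 in the table did not pass.

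Outside the list, the named genes whose log2 CPM followed the members' library medians most closely over the 12 libraries at 16 h were Rnf213, Lgals9, Mfsd6, Igtp, Irgm2, Tap1, Gne and Siglec1. Genes without a symbol and those with provisional names (Gm and a number, or ending in Rik) were left out of this ranking. Pearson's r ran from 0.992 for Rnf213, a large ubiquitin ligase, to 0.976 for Siglec1, a macrophage surface lectin. Igtp and Irgm2 encode immunity-related GTPases, and Tap1 encodes a subunit of the peptide transporter of antigen presentation. The points share libraries and group means, so r describes these 12 libraries only. Among the members themselves, r with the same medians was highest for Stat2 (0.994), Parp14 (0.994) and Ifit3 (0.994).

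Hesperitin alone moved no measured ISG past the test. Of 44 members 0 passed in H against V, where 0% of all genes did (edgeR). DESeq2, which gave 40 of the 44 an adjusted p, and limma voom also called 0 members. Over all genes DESeq2 called 3 higher and 10 lower, and limma voom called 0. By edgeR 0 members were higher or lower at an unadjusted p under 0.05, against 2.79% of all genes higher and 3.6% lower. The median difference was 0.02, from -0.36 to 0.41. By library, the median member stood at -0.02, 0.04 and 0.08 log2 units from the V mean. Irf7 read 7.17, 6.30 and 6.16 CPM in H, within the V range of 5.69 to 8.07 CPM, and Ifit1 read 4.91, 3.09 and 4.71 CPM, with 1 library below the V range.

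When hesperitin was added to doxorubicin, all 44 differences from doxorubicin alone were negative, but none passed the test. The median difference, DOXH against DOX, was -0.66 on the log2 scale, from -1.22 to -0.12, and the median over all genes was -0.01. By edgeR 0 of 44 passed and 36 had an unadjusted p under 0.05, all lower, where 0% of all genes passed and 7.72% were lower at that unadjusted p. limma voom also called 0. DESeq2, which gave 31 of the 44 an adjusted p, called 14 lower, where it called 0.95% of all genes lower. The smallest adjusted p by edgeR was 0.13, for Parp14, Ddx58, Cmpk2 and Pml.

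The 3 DOXH libraries gave this comparison its spread. Irf7 read 20.1, 20.4 and 4.67 CPM in DOXH libraries 1, 2 and 3, against 28.1 to 37.3 CPM in DOX and 5.69 to 8.07 CPM in V. Oasl2 read 23.7, 22.9 and 5.60 CPM, and Ifit1 read 17.2, 16.5 and 3.42 CPM. In each of these genes libraries 1 and 2 lay between V and DOX and library 3 lay inside or below the V range. Parp14 read 47.5, 43.8 and 23.9 CPM, Pml 10.5, 8.89 and 7.16 CPM and Cmpk2 10.6, 8.998 and 6.22 CPM, with library 3 again the lowest. Of the 44 members, 44 were above the V mean in DOXH library 1, 38 in library 2 and 17 in library 3. Ifitm3, at 49.8, 63.4 and 30.5 CPM, and Trim25, at 48.8, 55.4 and 39.0 CPM, were higher in library 2 than in library 1.

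With 1 DOXH library left out at a time, the count depended on which. Without DOXH library 2, 18 of 44 members were lower than in DOX, where 5.68% of all genes were lower. Without library 1, 0 members passed, where 0 of 10393 genes did, and without library 3 the same held. Cell marker levels also differed between DOXH and DOX, with none past the test. All 8 cardiomyocyte markers had positive differences in DOXH against DOX (median 0.56, 7 at an unadjusted p under 0.05), with sums of 32026 to 53675 CPM in DOXH. All 7 neutrophil markers had negative ones (median -0.84, 0 at an unadjusted p under 0.05), with sums of 61.6 to 153 CPM in DOXH. Their part in the ISG differences was not tested. What sets library 3 apart from the other 2 was not tested, and its labels differ from theirs only in the replicate number.

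On a scale where the V mean of a gene is 0% and its DOX mean is 100%, the 37 ISGs that rose with doxorubicin had a median position of 69.3% in DOXH library 1, 57.9% in library 2 and -9.26% in library 3. All 1624 genes that rose with doxorubicin, the 37 among them, had medians of 56.2%, 89.2% and 10.9% in the same libraries. The ISG median was the lower one in libraries 2 and 3 and the higher one in library 1. The scale is built on the V and DOX libraries that chose the genes, so these positions are a description. In the H libraries the ISGs lay at -2.20%, 6.63% and 6.45%.

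**Figure D4:**
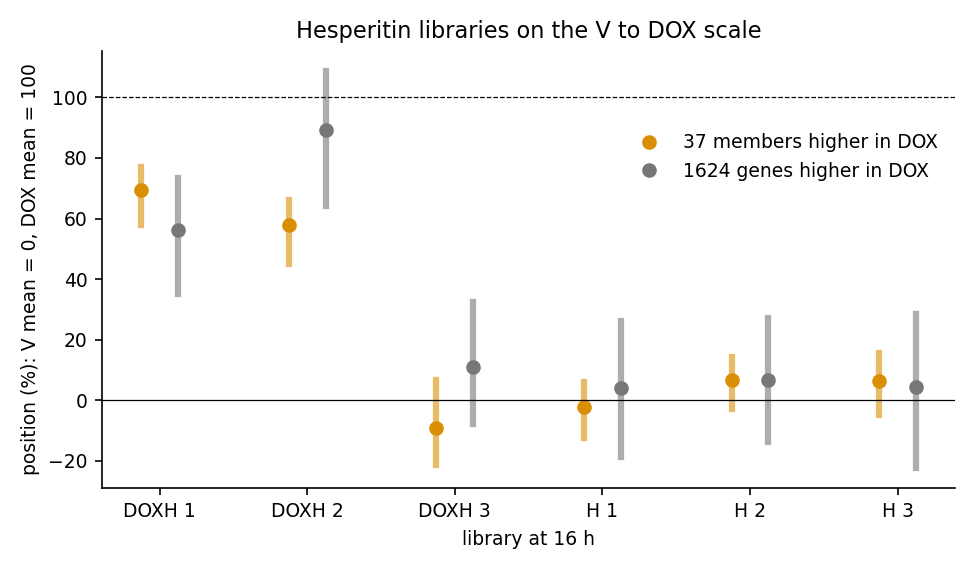
Position of each hesperitin library between the V mean (0%) and the DOX mean (100%) at 16 h, for 37 ISGs and for all 1624 genes that rose in DOX. Points are medians over genes and bars run from the lower to the upper quartile. In DOXH library 2 the ISGs lie at 57.9% and all raised genes at 89.2%, and in DOXH library 3 they lie at -9.26% and 10.9%.

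Against vehicle, DOXH had 0 of 44 members past the test by edgeR, where 0% of all genes did. At an unadjusted p under 0.05, 23 were higher, against 8.93% of all genes. The median difference was 0.43, and 40 of 44 were positive. DESeq2 called 2 of 44 higher, where it called 0.818% of all genes higher, and limma voom called 0. Without DOXH library 3, 28 of 44 were higher than V, where 7.36% of all genes were higher. Without library 1 or library 2, 0 passed. The interaction, the doxorubicin difference with hesperitin minus that without, was negative for all 44 members, with a median of -0.69. None passed it by edgeR, where 0% of all genes did, and 26 were lower at an unadjusted p under 0.05, against 4.96% of all genes. Here DESeq2 and limma voom also called 0 members. Over all genes DESeq2 called 44 higher and 9 lower for the interaction, and limma voom called 0. The comparisons of this section share the DOX or the V libraries with the doxorubicin comparison and are not independent of it.

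At 72 h, fewer of the ISGs could be measured. Of 26 measured members 16 rose, 1 fell and 9 did not pass, where 26.5% of all genes rose and 27.2% fell. The count at which genes entered was examined for the 16 h table only. Entry of members through the DOX group is therefore not excluded at 72 h. The median difference was 0.38, against 0.01 over all genes, and the median member stood 0.39, 0.45 and 0.38 log2 units above the V mean in the 3 DOX libraries. Every DOX library lay above every V library in 15 of the 26 and in 31.2% of all genes tested. At 16 h the same 26 genes had a median difference of 0.89 and 21 rises. Against a fold of 1.5 (glmTreat), 2 of the 26 were higher, where 4.83% of all genes were. The 18 members not in the 72 h table, among them Irf7, Ifit1, Oasl2, Usp18 and Pml, are not analysed here at that time.

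Ifi27l2a had the largest rise at 72 h, from 6.07, 12.4 and 10.2 CPM to 26.1, 20.4 and 23.9 CPM (1.30 ± 0.23, adjusted p = 0.00266). Ifitm3 had the smallest p, from 26.0, 36.8 and 33.2 CPM to 63.6, 64.6 and 71.4 CPM (1.06 ± 0.12, adjusted p = 0.000158). Oas2 read 5.89, 6.45 and 5.71 CPM against 12.3, 9.05 and 15.8 CPM (1.04 ± 0.22, adjusted p = 0.00337). The DOX libraries were above the V libraries in each. Helz2 rose by 0.75 ± 0.13, Stat2 by 0.72 ± 0.13 and Trim25 by 0.70 ± 0.10, with adjusted p of 0.00135, 0.00132 and 0.000462. Of the 4 transcription factors and partners measured, 3 rose (Stat2, Irf9 and Ifi35). Irf9, at 0.38 ± 0.13 (adjusted p = 0.0368), lost its call without any of 4 libraries (adjusted p up to 0.126). The calls for Uba7, Parp12, Adar, Trim30a and Sp100 were also lost when certain single libraries were left out, with adjusted p up to 0.0707, 0.114, 0.06, 0.0508 and 0.156. The other 11 of the 17 calls held without any 1 library. Of these 11, the calls for Ifi27l2a and Lgals3bp did not pass with the replicate number added to the fit as a block.

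Besides Ube2l6, 2 members passed at 72 h and not at 16 h. Ifi35 read 9.28, 9.25 and 8.39 CPM in V and 11.95, 13.9 and 14.6 CPM in DOX at 72 h (0.59 ± 0.13, adjusted p = 0.00429), and Uba7 read 12.1, 9.83 and 11.0 CPM against 14.4, 14.6 and 13.8 CPM (0.38 ± 0.11, adjusted p = 0.0175). Their change between the times did not pass the test (adjusted p = 0.398 and 0.793). Irf1 did not pass at either time, at 15.1, 14.7 and 15.3 CPM in V and 15.8, 14.8 and 20.5 CPM in DOX at 72 h (0.18 ± 0.13, adjusted p = 0.264). Ifi27 did not pass at either time (0.32 ± 0.15 at 72 h, adjusted p = 0.0896).

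Ube2l6, the conjugating enzyme of ISG15, was the member that fell. It read 10.4, 8.30 and 16.7 CPM in V and 4.33, 5.73 and 5.09 CPM in DOX at 72 h, for a log2 difference of -1.23 ± 0.28 (adjusted p = 0.00501). The 3 DOX libraries were below the 3 V libraries, which themselves spread widely. At 16 h its difference was 0.25 ± 0.22, and the change between the times was -1.48 ± 0.37 (adjusted p = 0.00819). Uba7, which acts before it in the same pathway, rose at 72 h, and Trim25 rose at both times.

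The difference between the times was tested directly, as the doxorubicin difference at 72 h minus that at 16 h, each against its own vehicle group. Of 26 members 13 had a lower difference at 72 h and 0 a higher one, where 13.8% of all genes were lower and 12.6% higher. The median was -0.68, against 0.02 over all genes. Against a fold of 1.5 (glmTreat) 1 of the 26 was lower, where 0.716% of all genes were. With the replicate number added to the fit as a block, 7 of the 26 were lower, where 638 of 7407 genes were. The calls for Ifit3 and Ube2l6 were among those lost. At 72 h itself, 5 of the 13 were still past the test as higher, 7 did not pass and Ube2l6 was lower.

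Parp14 had the smallest p of this comparison. It read 24.6, 23.7 and 18.1 CPM in V and 21.2, 24.2 and 24.8 CPM in DOX at 72 h (0.08 ± 0.12, adjusted p = 0.598), a change from 16 h of -1.44 ± 0.26 (adjusted p = 0.00163). Eif2ak2 read 12.3, 11.2 and 12.2 CPM against 10.8, 13.1 and 10.7 CPM at 72 h, a change of -0.91 ± 0.20 (adjusted p = 0.00403). Znfx1 read 31.8, 25.8 and 25.3 CPM against 26.6, 25.4 and 26.5 CPM, a change of -0.71 ± 0.15 (adjusted p = 0.00414). The V and DOX libraries of these 3 genes overlapped at 72 h, where they had been apart at 16 h. Dtx3l read 14.2, 13.3 and 14.6 CPM against 12.3, 10.5 and 14.0 CPM, a change of -1.02 ± 0.23 (adjusted p = 0.00477). Samd9l read 24.2, 27.1 and 25.2 CPM against 22.7, 24.1 and 27.8 CPM, a change of -0.70 ± 0.18 (adjusted p = 0.0109). Rsad2 read 15.7, 16.0 and 15.8 CPM against 10.3, 11.7 and 15.3 CPM, with all DOX libraries below V, and its difference at 72 h did not pass (-0.35 ± 0.14, adjusted p = 0.0635) while its change between the times did (-1.09 ± 0.24, adjusted p = 0.00427).

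Ifit3 had the largest change between the times, -1.75 ± 0.48 (adjusted p = 0.0148), and at 72 h read 8.75, 9.45 and 10.6 CPM in V and 13.0, 17.1 and 8.33 CPM in DOX (0.42 ± 0.24, adjusted p = 0.171), with 1 DOX library below V. Ifit2 was still higher at 72 h, from 11.4, 12.8 and 13.1 CPM in V to 20.6, 20.1 and 16.5 CPM in DOX (0.62 ± 0.12, adjusted p = 0.00189), and its change was -1.38 ± 0.42 (adjusted p = 0.0256). Sp100, Trim30a, Stat2 and Parp9 likewise rose at both times, with changes between the times of -0.75 ± 0.21, -1.01 ± 0.32, -0.89 ± 0.31 and -0.50 ± 0.18 (adjusted p = 0.0159, 0.0318, 0.0452 and 0.047). The calls for Stat2, Parp9, Trim30a and Ifit2 were lost without 10, 9, 8 and 3 of the 12 libraries, each left out alone, with adjusted p up to 0.111, 0.122, 0.0848 and 0.061. For Ifitm3 (-0.28 ± 0.27, adjusted p = 0.468), Ifi27l2a (-0.36 ± 0.47, adjusted p = 0.597) and Trim25 (0.10 ± 0.17, adjusted p = 0.698) the change between the times did not pass the test, and they rose at both.

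**Figure D5:**
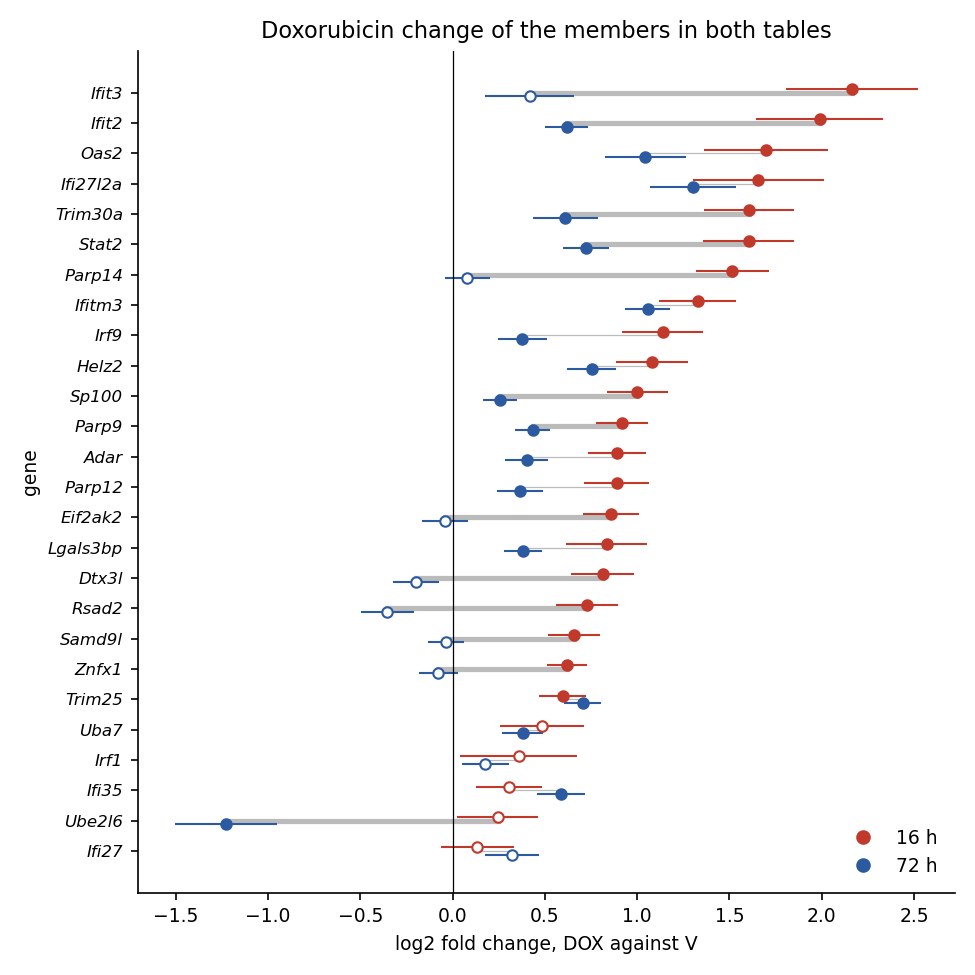
Log2 fold change of DOX against V at 16 h (red) and 72 h (blue) for the 26 ISGs in both tables, with SE bars. Filled points passed the test, open points did not, and a thick grey line marks a change between the times that passed. Parp14 goes from 1.52 to 0.08, Ifitm3 from 1.33 to 1.06 and Ube2l6 from 0.25 to -1.23.

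The surrounding pathway at 72 h was measured in fewer genes, and 26.5% of all genes rose and 27.2% fell in this comparison. Of 9 receptor and JAK-STAT genes, 2 rose (Ifngr1, 0.49 ± 0.07, and Stat3, 0.99 ± 0.13) and 3 fell (Ifngr2, -1.58 ± 0.09, Il10rb, -0.82 ± 0.08, and Jak1, -0.66 ± 0.08). Of 8 nucleic acid sensing genes, 6 rose (Tbk1, Irf3, Myd88, Samhd1, Ifi204 and Ifi205) and 2 fell (Mavs and Traf3). Of 8 negative regulators, 3 rose (Socs3, 2.52 ± 0.48, Ptpn1 and Ptpn2) and 1 fell (Cish). Of 7 NF-kB targets, 4 rose and 0 fell. Markers of other cells moved at this time too: 3 neutrophil markers summed to 0.957 to 1.98 CPM in V and 26.4 to 133 CPM in DOX, 7 macrophage and monocyte markers to 130 to 171 CPM and 209 to 263 CPM, and 8 cardiomyocyte markers to 39817 to 47370 CPM and 15889 to 19367 CPM. Gene by gene, 3 of 3 neutrophil markers rose, and 4 of 7 macrophage and monocyte markers rose while 1 fell. Of the 8 cardiomyocyte markers, 7 fell and 1 did not pass. The 5 erythroid markers all fell (median -6.56), from a sum of 1436 to 3523 CPM in V to 20.6 to 33.03 CPM in DOX. Of 8 endothelial markers 5 rose and 1 fell (904 to 1005 CPM in V, 1181 to 1761 CPM in DOX). Of 7 fibroblast markers 2 rose and 1 fell (1165 to 1542 CPM in V, 1630 to 2458 CPM in DOX). Of 7 mural markers 2 fell and 0 rose (961 to 970 CPM in V, 761 to 800 CPM in DOX). Their part in the ISG differences was not tested.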

How the data were processed

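Per the labels' protocols and the design text, poly(A) RNA of mouse heart was sequenced as single-end reads. The deposited values are expected counts (estimated reads per gene, with decimals), with separate tables for 16 h and 72 h. Per the submitters' processing notes, RSEM, DESeq2 and the genome GRCm38 (mm10) were used. Not given in the sources used here: versions, the annotation, the strand setting and the rule by which genes entered each table. Groups follow the labels (24 samples in 8 groups of 3, all given 1 batch). At 72 h, 6 columns whose code matches no label were left out, and 1 of the 3 DOX columns, numbered unlike any label, entered unnumbered. No replicates agreed within sampling noise.

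Counts were rounded, TMM factors gave the scaling, and filterByExpr kept 10393 genes at 16 h and 7703 at 72 h. Comparisons were tested with edgeR 4.0.16 (R 4.3.3; a robust quasi-likelihood fit over 12, 6 or 18 libraries, with a mean for each group), and p-values were adjusted by Benjamini-Hochberg across every gene in the fit (threshold 0.05). SE is the absolute log2 change divided by the square root of F. CPM are TMM-scaled within a table, so levels are not compared between tables. A prior count of 2 entered log2 CPM. Gene positions are from the GENCODE annotation of GRCm38. The members, roles, lists and tests were chosen with earlier results of these data known. Values per library are given for the 3 members of each role with the smallest p at 16 h, those that did not pass or fell, and the 8 with the smallest p for the difference between times. Other settings tried were DESeq2 1.42.0, limma 3.58.1 (voom), RLE or upper quartile factors, filters of none or a mean CPM of 5 or more, glmTreat at a fold of 1.5, a replicate block, only the groups compared, and each library left out. The test was run on simulated counts with far fewer changed genes than the doxorubicin comparisons here, and no result rests on it. For 1 gene of the surrounding pathway, results are not reported here.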

Additional observations from a re-analysis of the deposited data

Results flagged for a closer look

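For 13 members the doxorubicin difference from vehicle was not the same at 72 h as at 16 h by a test of the difference itself (edgeR quasi-likelihood test over 7407 genes, log2 scale). All 13 were lower at 72 h, where 13.8% of all genes were lower and 12.6% higher. The calls of Stat2, Parp9, Trim30a and Ifit2 were lost when certain single libraries were left out. Those of Ifit2, Ifit3, Ube2l6, Parp9, Stat2 and Sp100 did not pass with a replicate block. Ifit3 had the largest change, -1.75 (adjusted p = 0.0148), followed by the ISG15-conjugating enzyme Ube2l6 at -1.48 (adjusted p = 0.00819), Parp14 at -1.44 (adjusted p = 0.00163) and Ifit2 at -1.38 (adjusted p = 0.0256). Viperin (Rsad2) changed by -1.09 (adjusted p = 0.00427), Dtx3l by -1.02 (adjusted p = 0.00477) and Trim30a by -1.01 (adjusted p = 0.0318). PKR (Eif2ak2) changed by -0.91 (adjusted p = 0.00403), Stat2 by -0.89 (adjusted p = 0.0452), Sp100 by -0.75 (adjusted p = 0.0159), Znfx1 by -0.71 (adjusted p = 0.00414), Samd9l by -0.70 (adjusted p = 0.0109) and Parp9 by -0.50 (adjusted p = 0.047). Dtx3l and Parp9 overlap on opposite strands, so they may share reads.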

How the results depend on the processing

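Precision was limited by 3 libraries a group, with 9255651 to 20587578 counts each. Against a fold of 1.5 (glmTreat) 12 of 44 members passed in DOX against V at 16 h, 2 of 26 at 72 h and 1 of 26 for the difference between times. With DESeq2 14 members passed in DOXH against DOX and 2 in DOXH against V. At 72 h 15 of 26 passed with DESeq2 and 15 with limma voom (14 higher in each), rather than 17. For the difference between times 14 passed with DESeq2 and 12 with limma voom, rather than 13. DESeq2 ended the 72 h calls of Irf9 and Sp100, and upper quartile factors ended that of Parp9 between the times. With each library left out in turn, 35 to 39 members passed in DOX against V at 16 h, 13 to 16 at 72 h, 9 to 13 for the difference between times, 0 to 18 in DOXH against DOX (18 without DOXH library 2), 0 to 28 in DOXH against V (28 without DOXH library 3), 0 to 0 in H against V and 0 to 0 for the interaction. RLE or upper quartile factors reversed no member and moved the median over all genes by less than 0.05. The core of the response element followed by CT was in 8 promoters rather than 13. Except where fewer genes, samples or a higher fold bar enter by construction, the cause was not tested.

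Labels in different groups share replicate numbers. The deviations of same-numbered libraries correlated at r from -0.415 to 0.25 over 18 pairs at 16 h (4 over 0.1), and at 0.12 and 0.254 over 2 pairs at 72 h. The other pairs of a DOX and a V library at 72 h ran from -0.204 to 0.0908, below both. The main tests took the libraries to share a number only, and a pairing at 72 h is not excluded. With a replicate block, 37 of 44 members passed in DOX against V at 16 h, 16 of 26 at 72 h (14 higher, 2 lower) and 7 of 26 for the difference between times. The calls of Trim30a, Sp100, Ifi27l2a and Lgals3bp at 72 h, and those of Ifit2, Ifit3, Ube2l6, Parp9, Stat2 and Sp100 between the times, did not pass with the block. With the block the 72 h difference of Parp14 was -0.093 and that of Eif2ak2 0.0216, both reversed from small values that did not pass. With 1 library left out, the 72 h difference ranged from -0.0513 to 0.164 for Parp14, from -0.142 to 0.00966 for Eif2ak2, from -0.142 to 0.0364 for Znfx1 and from -0.123 to 0.0274 for Samd9l, and the change between times from -0.31 to 0.12 for Uba7 and from -0.52 to 0.12 for Irf1.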

Other observations

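Neighbouring members did not always move alike. Ifi27l2a (chr12:103442167-103443680, minus strand, GRCm38) and Ifi27 (chr12:103434211-103440239, plus strand) lie side by side. Ifi27l2a rose at 16 h (1.66 ± 0.35) and at 72 h (1.30 ± 0.23), while Ifi27 passed at neither time (0.13 ± 0.20 and 0.32 ± 0.15). Parp14, Dtx3l and Parp9 lie in a row on chromosome 16 (chr16:35832874-35871544, chr16:35926511-35939151 and chr16:35938470-35972605). At 16 h all 3 rose, by 1.52 ± 0.20, 0.81 ± 0.17 and 0.92 ± 0.14, and at 72 h their differences were 0.08 ± 0.12, -0.20 ± 0.12 and 0.43 ± 0.10, of which that of Parp9 passed. The differences between neighbours were not tested.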
